A study of Mus musculus with 12 samples.

Results

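The collagen and laminin chains of the mouse were followed in RNA sequencing of whole right hippocampus from APP/PS1 and wild-type (WT) mice. Members were the protein-coding genes whose symbol is that of a collagen chain or of a laminin alpha, beta or gamma chain. The count table held 55 of them among 55573 genes, 44 collagens and 11 laminins. Of these, 41 (31 collagens and 10 laminins) passed the expression filter, which asked for a log2 CPM (counts scaled to the library total) of 1 or more in 3 or more libraries, as did 14008 genes in all. The APP/PS1 line (APPSwe/Ps1dE9) was kept on C57BL/6J, and its APP and PS1 transgenes are expressed from a prion promoter. The mice were 4.5 months old, with 4 APP/PS1 mice and 2 WT mice in each of the 2 sexes and 1 library per mouse, so each sex rested on 2 WT mice. Total counts ranged from 36714316 to 50643565 with a median of 39369461. Libraries are named by genotype, sex and number within the group, and levels are CPM after upper-quartile scaling.

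Collagens are matrix or membrane proteins whose chains wind around each other into a helix, and most trimers are made of chains of the same type. Laminins are heterotrimers of an alpha, a beta and a gamma chain, and with type IV collagen they form the sheets called basement membranes. In brain these sheets surround blood vessels, lie under the pia and carry the epithelium of the choroid plexus, while fibrillar collagens are mostly made by fibroblasts of the meninges and of the choroid plexus stroma. Some collagens are also made by neurons, among them the transmembrane collagen XXV, whose shed part is found in amyloid plaques.

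The libraries differed in choroid plexus RNA before any comparison. Ttr, the transthyretin gene that choroid plexus epithelium expresses at very high levels, was at 3530 CPM in APP/PS1 female 1, at 3650 in WT female 2 and at 6360 in the second APP/PS1 male (male 2). It was between 2.69 and 18.3 CPM in the other 9 libraries. These 3 libraries are called Ttr-rich here, a split made on a measured gene and not on a label, so they are described without a test. All 14 choroid plexus epithelium markers were higher in the 3 than in each of the other 9, but Ttr defined the split and 10 others passed the filter through these libraries alone, so they had to be higher. The other 3 were Kl, Prlr and Sostdc1. The sum of the 14 was 4035, 4237 and 7180 CPM in the 3, against 28.6 to 47.5 elsewhere, and Ttr was the most abundant. Without Ttr it was 505, 590 and 817 CPM against 25.3 to 32.3. The hippocampal neuron markers summed to between 1034 and 1234 CPM in all 12 libraries, with Neurod6 and Zbtb20 well expressed in each, so the labelled tissue was present in every library.

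Meningeal and stromal fibroblast markers differed among themselves. Their sum was 94.5, 119 and 104 CPM in APP/PS1 female 1, WT female 2 and APP/PS1 male 2, and 67.1 to 120 in the others. Dcn, the proteoglycan decorin and the most abundant of the 14, was at 45.0, 68.5 and 43.8 CPM in the Ttr-rich libraries and between 41.6 and 88.2 in the rest. Without Dcn, a sum formed after the values were seen, the list was at 49.5, 50.2 and 59.9 CPM in the Ttr-rich libraries and 24.1 to 39.7 in the others, without overlap. Of the 8 that passed the filter, 4 (Slc6a13, Slc6a20a, Igf2 and Aldh1a2) were higher in each Ttr-rich library than in all others, as were 5.53% of all genes tested, and the median ratio of the 8 was 1.52. Igf2 passed through the Ttr-rich libraries alone and had to be higher, which leaves 3 of 7. No marker of this list was at 0 in all libraries, but 6 of the 14 were too low to pass. The description of these libraries as rich in meningeal and stromal tissue thus held for part of the list and not for Dcn or Foxc1, and they are called by Ttr alone. Ependymal markers summed to 39.1, 46.1 and 55.7 CPM in the Ttr-rich libraries and to 18.9 to 40.1 in the others, with Foxj1 the most abundant and Mia at or near 0. Endothelial markers (202 to 254 against 174 to 270 CPM, led by Flt1) and mural cell markers (174 to 191 against 148 to 219 CPM, led by Rgs5) overlapped fully.

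Several chains of the same trimer lie side by side in the genome (GRCm38). Col4a1 (chr8:11198423-11312826, minus strand) and Col4a2 (chr8:11312805-11449287, plus strand) are transcribed away from each other and their annotated ends overlap by 22 bases. Col4a4 (chr1:82448423-82586849, minus strand) and Col4a3 (chr1:82586921-82722059, plus strand) start 71 bases apart in the same head-to-head order, and Col4a6 and Col4a5 lie on either side of 1308 bases of the X chromosome. The bases at these shared starts are shown because the chains of each pair are compared below. RefSeq promoter entries were found for 40 of the 55 members. The first sequence is the plus strand around the overlap, with the shared 22 bases in capitals (chr8:11312801-11312830), and the second is the whole plus strand gap, with no part marked (chr1:82586850-82586920).
Col4a1 and Col4a2: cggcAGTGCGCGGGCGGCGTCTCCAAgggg
Col4a4 and Col4a3: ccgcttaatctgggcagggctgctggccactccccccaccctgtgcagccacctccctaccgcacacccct

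Other members are neighbours without sharing a start. Col3a1 and Col5a2 are 24614 bases apart, Col9a1 and Col19a1 9205 bases, and Col6a2 and Col6a1 85161 bases. The members were long and rich in G and C. Of the 41, 37 had a longer exon length than the median gene tested (8039 against 4540 bases at the medians) and 35 had a higher GC content of the longest transcript (55.7% against 49.6%). Exons of 12 of the 41 overlap another annotated gene, 11 of them on the opposite strand. The libraries were directional, but the strand option of the counting is not given in the sources used here, so reads of such partners cannot be told apart and these levels are uncertain. They were Col4a1, Col4a2, Col4a3, Col5a1, Col6a4, Col9a3, Col15a1, Col20a1, Col22a1, Lama2, Lama3 and Lamc3.

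Levels are compared between genes per kilobase of exon. The median member was at 0.605 CPM per kilobase over the 12 libraries, and the median of all genes tested was 5.76, so that most chains were low in hippocampus. The 5 highest were Col25a1 at 6.72, Col4a2 at 6.21, Col4a1 at 6.13, Col9a3 at 5.41 and Lamc1 at 4.02 CPM per kilobase. The ranges over libraries of the first 3 overlapped (5.95 to 8.02, 4.29 to 9.64 and 4.65 to 8.85), so their order did not exceed the spread. The position of Col9a3 came from the Ttr-rich libraries, as its range ran from 1.82 to 16.3. The 14 chains that failed the filter had mean levels between 0.0993 and 1.86 CPM and included Col3a1, Col4a6, Col6a3 and Lamb3.

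**Figure D1:**
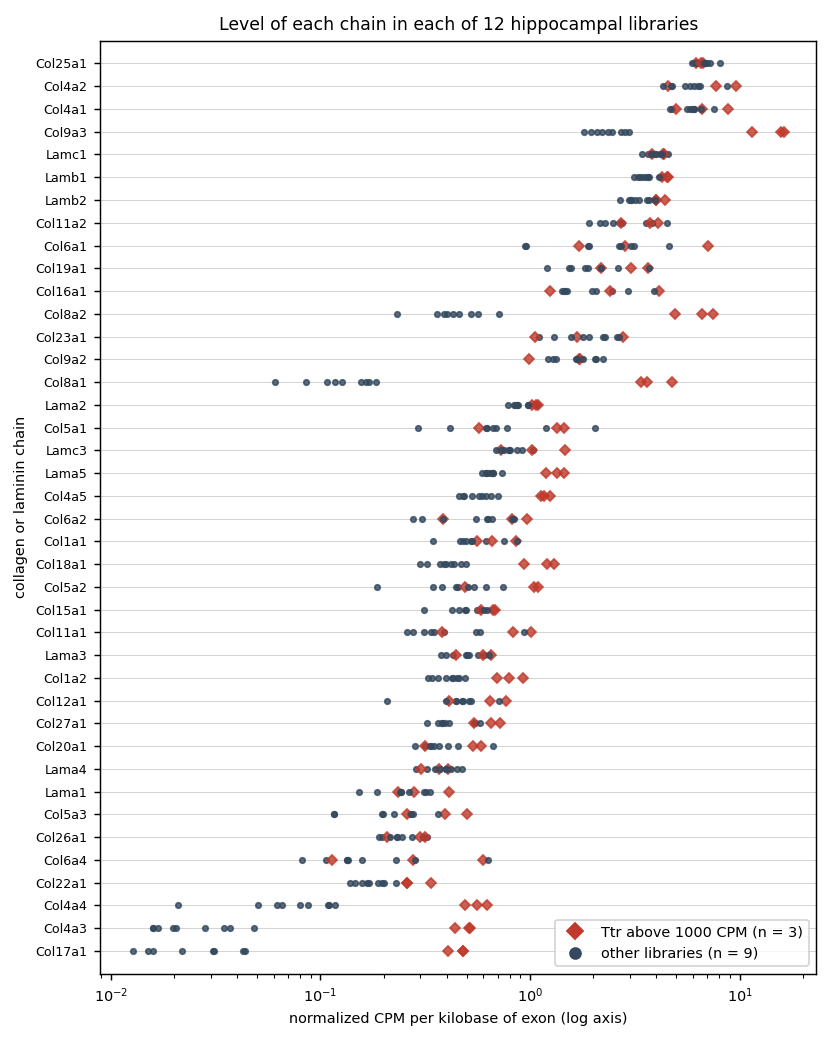
Level of 40 of the 41 chains that passed the filter, in normalized CPM per kilobase of exon on a log axis, with chains ordered by their mean. Each point is 1 library (a value of 0, Col17a1 in APP/PS1 female 4, is not drawn), and the 3 Ttr-rich libraries (diamonds) stand to the right of the other 9 for Col8a1, Col8a2, Col9a3, Col4a3, Col4a4 and Col17a1 among others.

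The basement membrane chains found in nearly every tissue were among the 7 highest members per kilobase. Col4a1 ranged from 34.7 to 66.1 CPM and Col4a2 from 28.4 to 63.8, and the ratio of Col4a1 to Col4a2 per kilobase stayed between 0.855 and 1.26 in all 12 libraries with a median of 1. WT female 2 and APP/PS1 male 4 were the highest libraries for both chains. Lamb1 and Lamc1, the beta and gamma chains of the most widespread laminins, ranged from 31.2 to 45.3 and from 28.4 to 37.9 CPM, and their ratio per kilobase from 0.808 to 1.18. Lamb2, the other common beta chain, ranged from 16.4 to 26.9 CPM. Among the alpha chains per kilobase, Lama2 (the alpha chain of brain vessel and glial limiting membranes) led with 0.941, followed by Lama5 with 0.819, Lama3 with 0.516, Lama4 (of endothelial basement membranes) with 0.378 and Lama1 (of the pial membrane) with 0.268. The library ranges of Lama2 (0.786 to 1.09) and Lama5 (0.588 to 1.46) overlapped, as did those of Lama3 (0.377 to 0.648) and Lama4 (0.285 to 0.472). Lamb3, which was not tested, was at 0.215 CPM per kilobase and Lamc3 at 0.882.

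Among fibrillar chains, those of types I, III and V were at 0.116 to 0.890 CPM per kilobase and Col11a2, of type XI, was at 3.07. Col1a1 ranged from 2.26 to 5.68 CPM, Col1a2 from 4.05 to 11.5 and Col3a1, the partner of type I in most soft tissue, from 0.474 to 1.84. Type V chains, which limit fibril thickness, ranged from 2.48 to 17.3 CPM for Col5a1, 1.78 to 10.5 for Col5a2 and 0.787 to 3.42 for Col5a3. Of the microfibrillar type VI, Col6a1 ranged from 4.15 to 31 CPM and Col6a2 from 2.31 to 8.05, while Col6a3 stayed between 1.22 and 2.04 except for 4.50 in WT female 2. Col6a1 was above Col6a2 per kilobase in every library, by 3.13 to 7.32 times. WT female 2 was the highest library for Col6a1, Col6a2 and Col6a3.

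Each chain is described next in the Ttr-rich and the other libraries, without a test. The 3 Ttr-rich libraries all lay above the other 9 for 12 of the 41 chains (10 collagens and 2 laminins), where 5.53% of all genes tested did so, and the median ratio of the Ttr-rich mean to the other mean was 1.30 for the members and 1 for all genes tested. Of the 12, Col8a1, Col17a1, Col4a3 and Col4a4 passed the filter through the Ttr-rich libraries alone and so had to differ. They are given as values and support nothing. Col22a1 passed with 1 of the other libraries. The remaining 7 were Col8a2, Col9a3, Col18a1, Col4a5, Lama5, Col1a2 and Lamb2, each of which passed in at least 3 of the other libraries. Whether more choroid plexus cells or more RNA per cell were present cannot be told apart in whole tissue, and the part of choroid plexus RNA in each chain's level was not tested.

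Type VIII collagen is a network former best known from the membrane under the corneal endothelium, and of its chains only Col8a2 passed the filter without the Ttr-rich libraries. Col8a1 was at 26.4 CPM in APP/PS1 female 1, 28.3 in WT female 2 and 37.4 in APP/PS1 male 2, and between 0.476 and 1.44 with a median of 0.99 in the other 9. Col8a2 was at 22.1, 29.8 and 33.7 CPM in the same libraries and between 1.04 and 3.19 with a median of 1.93 elsewhere. The groups of libraries did not overlap for either chain, and the ratio of means was 30.1 for Col8a1 and 14.1 for Col8a2. Within genotype and sex the ratio of the Ttr-rich library to the mean of the others in its group was 21, 40.1 and 59.5 for Col8a1 (APP/PS1 females, APP/PS1 males and WT females) and 10.4, 22 and 12.6 for Col8a2. The 250 bases before the start of each gene are shown because Col8a2 had the highest ratio of the chains that did not have to differ, and Col8a1 is its partner. Capitals mark matches on either strand to the TATA box (letters TATAAA), the CCAAT box, the GC box (letters GGGCGG) and a site of Otx homeobox factors (letters TAATCC). They are from RefSeq (GRCm38.p6), Col8a1 on the minus strand at chr16:57754738-57754987 and Col8a2 on the plus strand at chr4:126286544-126286793.
Col8a1: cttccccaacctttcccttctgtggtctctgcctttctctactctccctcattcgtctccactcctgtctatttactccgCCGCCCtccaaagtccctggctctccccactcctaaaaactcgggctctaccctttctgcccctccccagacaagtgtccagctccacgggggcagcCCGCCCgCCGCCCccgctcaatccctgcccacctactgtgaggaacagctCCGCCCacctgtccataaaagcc
Col8a2: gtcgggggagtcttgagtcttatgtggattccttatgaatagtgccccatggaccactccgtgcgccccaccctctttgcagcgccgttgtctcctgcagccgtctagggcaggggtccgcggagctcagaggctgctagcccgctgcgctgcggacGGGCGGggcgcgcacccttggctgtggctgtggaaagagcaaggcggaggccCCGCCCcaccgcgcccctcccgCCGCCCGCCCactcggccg
Each held 4 matches to GGGCGG, overlapping ones included, and none to the others. A match to GGGCGG was found in the same window of 32.7% of 32851 promoters, to TATAAA in 12.4%, to CCAAT in 33.8% and to TAATCC in 6.25%, so having a match does not set these genes apart.

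The type IV chains are given by pair. Col4a3 was at 4.38, 5.09 and 5.16 CPM in APP/PS1 female 1, WT female 2 and APP/PS1 male 2, against 0.158 to 0.479 (median 0.204) in the other 9. Col4a4, its head-to-head partner, was at 5.19, 6.65 and 5.93 CPM against 0.223 to 1.24 (median 0.847). Col4a5, the third chain of the network that these chains form in kidney, was at 7.60, 7.83 and 8.33 CPM against 3.07 to 4.71 (median 3.82). Col4a3 and Col4a4 had to differ. Col4a5 did not have to and did not overlap between the Ttr-rich and the other libraries, whereas Col4a1 and Col4a2 overlapped, with ratios of means of 1.16 and 1.25. Per kilobase, Col4a3 and Col4a4 stood at a ratio of 0.815 to 0.927 in the Ttr-rich libraries and at 0.136 to 1.33 over all 12. Col4a6, too low to be tested, was at 1.19, 1.10 and 1.38 CPM against 0.509 to 0.906.

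Among other chains, Col9a3, of the fibril-associated type IX, was at 44.3, 60.9 and 62.7 CPM against 7.01 to 11.4 (median 9.07). The second type IX chain that passed, Col9a2, was not higher there, at 5.34, 5.31 and 3.06 CPM against 3.76 to 6.87. Col17a1, a transmembrane collagen of hemidesmosomes that had to differ, was at 2.89, 2.87 and 2.45 CPM against 0 to 0.263. Col18a1, the basement membrane collagen from which endostatin is cut, was at 6.59, 9.15 and 8.50 CPM against 2.09 to 3.47 (median 2.78). Lama5 was at 13.6, 15.4 and 16.6 CPM against 6.69 to 8.40 (median 7.37), and none of the other alpha chains showed such a gap (ratios of means 0.929 to 1.21 for Lama1, Lama2, Lama3 and Lama4). Lamb2 barely separated, with 24.3, 24.3 and 26.9 CPM against 16.4 to 24.1. Of type I, Col1a2 was at 8.66, 11.5 and 9.83 CPM against 4.05 to 6.06 (median 5.30). Col1a1 overlapped, at 3.65, 5.62 and 4.34 CPM against 2.26 to 5.68.

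**Figure D2:**
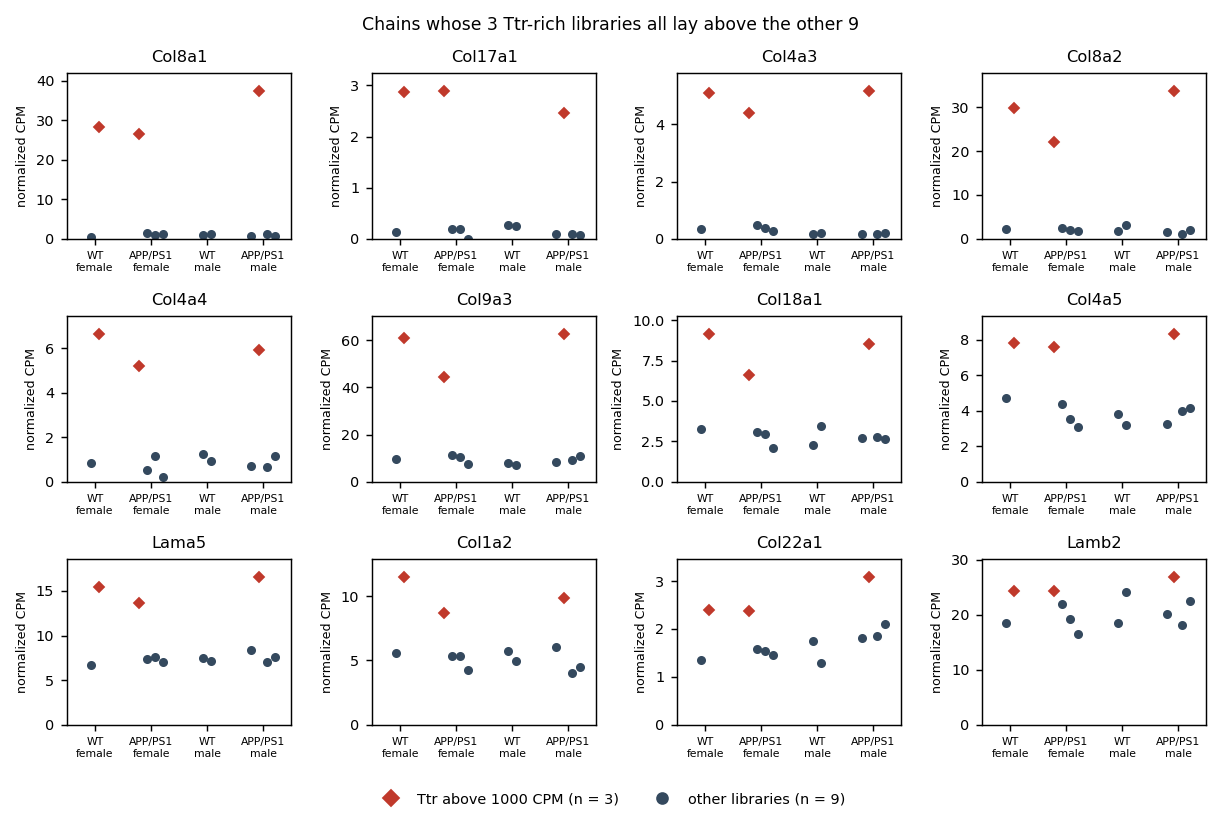
Normalized CPM of the 12 chains whose Ttr-rich libraries all lay above the others, by genotype and sex, each point 1 mouse and each vertical axis starting at 0. The diamonds (APP/PS1 female 1, WT female 2 and APP/PS1 male 2) stand alone for Col8a2 at 22.1 to 33.7 CPM against at most 3.19, and almost touch the others for Lamb2.

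The comparison of APP/PS1 with WT asked whether any chain differed by genotype. With both sexes averaged, 1 of the 41 chains was called by edgeR's quasi-likelihood test (Benjamini-Hochberg adjusted p under 0.1), where 1.9% of all genes tested were called. It was Col16a1, a fibril-associated collagen, which was higher in APP/PS1. At an unadjusted p under 0.05 there were 5 chains (12.2%, against 9.58% of all genes tested), 2 higher and 3 lower. The median log2 fold change of the members was -0.03 (20 of 41 above 0) and that of all genes tested 0.01 (54.7% above 0). No chain had all 8 APP/PS1 libraries on one side of all 4 WT libraries, and few of all genes tested did. Of those 14008 genes, 184 were higher in that way and 19 lower. The members were thus not set apart by genotype in number or median.

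Col16a1 was at 27.8, 26.4, 16.6 and 9.84 CPM in the 4 APP/PS1 females and at 14 and 16.3 in the 2 WT females. Male values were 10.1, 8.43, 9.91 and 19.9 CPM in APP/PS1 and 9.58 and 13.3 in WT. Genotypes overlapped in both sexes, APP/PS1 female 4 lying below both WT females. The RUV factors are covariates meant to estimate variation unrelated to the groups, though how far they were unrelated was not tested. With them the log2 fold change was 0.35 ± 0.075 (SE) with both sexes averaged (edgeR adjusted p = 0.043) and 0.65 ± 0.11 in females (adjusted p = 0.0184). In males it was 0.04 ± 0.11 (adjusted p = 0.999). On the levels as measured, the mean log2 difference of 0.15 was not significant (exact permutation test over 495 assignments, two-sided, p = 0.671). The assignments exchanged genotype labels across the sexes, so they did not allow for a sex difference. The call rested on the factors, since without them the log2 fold change in females was 0.41 ± 0.45 with an adjusted p of 0.866, and with 1 factor it was 0.44 ± 0.46 (0.796). With both sexes averaged the call was lost, with log2 fold change and adjusted p in brackets, without APP/PS1 female 1 (0.27, 0.3), female 2 (0.32, 0.118) or female 4 (0.44, 0.177). It was also lost without WT female 1 (0.34, 0.27), WT female 2 (0.34, 0.113), APP/PS1 male 4 (0.24, 0.389), the Ttr-rich libraries (0.31, 0.155) or a filter (0.26, 0.99), and with a choroid plexus score instead of the factors (0.24, 0.902). In females it was lost without APP/PS1 female 1 (0.47, 0.218) or 4 (0.78, 0.13), WT female 1 (0.66, 0.246), APP/PS1 male 4 (0.61, 0.128), the Ttr-rich libraries (0.55, 0.135) or a filter (0.62, 0.909), and with the score (0.44, 0.802). Over all alternatives the adjusted p lay between 0.00531 and 0.99 with both sexes averaged, and in females it lay between 5.06e-05 and 0.929, and the direction in females did not turn. The 250 bases before its start (RefSeq, GRCm38.p6, chr4:130047590-130047839, plus strand), shown for the one chain called and marked as for type VIII, held 1 match to GGGCGG and 1 to CCAAT.
Col16a1: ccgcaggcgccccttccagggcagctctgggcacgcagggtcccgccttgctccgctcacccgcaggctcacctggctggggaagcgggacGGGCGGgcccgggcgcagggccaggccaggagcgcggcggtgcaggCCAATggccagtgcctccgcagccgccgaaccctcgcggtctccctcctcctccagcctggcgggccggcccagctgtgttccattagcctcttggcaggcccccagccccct

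**Figure D3:**
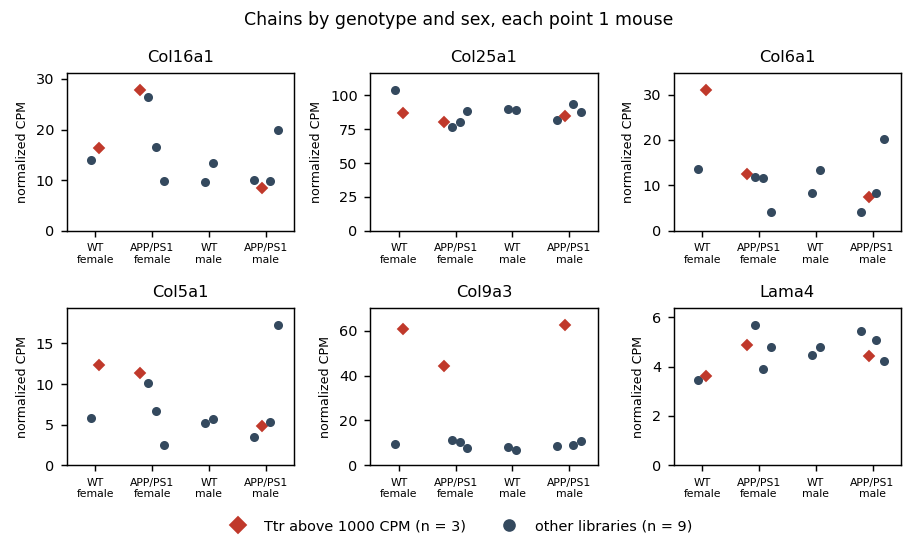
Normalized CPM of 6 chains by genotype and sex, each point 1 mouse, with vertical axes from 0 and diamonds for Ttr-rich libraries. Col16a1 spans 9.84 to 27.8 CPM among APP/PS1 females alone, Col25a1 stays between 77.0 and 104 CPM, and the 3 diamonds of Col9a3 lie at 44.3 to 62.7 CPM.

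In females 1 of 41 chains was called, again Col16a1, against 0.764% of all genes tested, and 7 had an unadjusted p under 0.05 (3 higher, 4 lower), or 17.1% against 9.77% of all genes tested. The median log2 fold change of the members in females was -0.10 and that of all genes 0.01. The 14 choroid plexus markers were all below 0 in females (median -0.55), with 0 called and 5 at an unadjusted p under 0.05. Since Ttr defined the split and 10 others passed through the Ttr-rich libraries alone, this shared direction supports nothing. Col25a1, the collagen of amyloid plaques, was at 80.3, 77.0, 80.2 and 88.6 CPM in APP/PS1 females and 104 and 87.1 in WT females. APP/PS1 female 4 lay above the lower WT female, so the groups overlapped. Its log2 fold change in females was -0.26 ± 0.072 (edgeR adjusted p = 0.183). It was called by the likelihood ratio test (adjusted p = 0.0912) and by DESeq2 (adjusted p = 0.0685), with a range of 0.0685 to 0.896 over all alternatives. In males it was at 82.0, 84.9, 93.4 and 88.0 CPM in APP/PS1 and 90.3 and 88.9 in WT, with a log2 fold change of -0.02 ± 0.071. With both sexes averaged the log2 fold change of Col25a1 was -0.14 ± 0.05 (edgeR adjusted p = 0.321). On the levels as measured, its mean log2 difference was -0.13 (exact permutation test over 495 assignments, two-sided, p = 0.0545). The female value moved to -0.14 without WT female 1, the highest library for Col25a1.

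The log2 fold change of Lama4 was 0.45 ± 0.19 in females (edgeR adjusted p = 0.454). It stood at 4.89, 5.70, 3.91 and 4.79 CPM in APP/PS1 and 3.44 and 3.64 in WT, without overlap but also without a call. Col1a1 and Col6a1 separated in the other direction in females, also without a call. Col6a1 was at 12.4, 11.9, 11.7 and 4.15 CPM in APP/PS1 females and 13.7 and 31 in WT females. The share of all genes tested that separated in this way in females was not counted, so these gaps support nothing.

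In males 0 of 41 chains were called by edgeR's quasi-likelihood test (0.171% of all genes tested), and 5 had an unadjusted p under 0.05 (12.2%, against 5.7% of all genes tested). The likelihood ratio test and DESeq2 each called 1, Col9a3, with a log2 fold change of 0.52 ± 0.12 by the quasi-likelihood test (edgeR adjusted p = 0.284). Without APP/PS1 male 2 the male value was 0.05 ± 0.58 and without the factors 1.60 ± 1.3, the ends of its range over the alternatives, over which the adjusted p ranged from 0.031 to 1. Its male values were 8.47, 62.7, 9.07 and 11.0 CPM in APP/PS1 and 8.03 and 7.01 in WT, and the highest was the Ttr-rich APP/PS1 male 2. In females its log2 fold change was -0.35 ± 0.12 (adjusted p = 0.333), and there the Ttr-rich libraries were 1 of 4 APP/PS1 and 1 of 2 WT mice. The direction in females turned without WT female 2 (0.17) and without the Ttr-rich libraries (0.15, with 0.30 in males), and the lowest value was -1.26 without WT female 1. For the genotype by sex interaction 0 of 41 chains were called (0% of all genes tested), 7 had an unadjusted p under 0.05 (17.1%, against 4.03% of all genes tested), and the likelihood ratio test and DESeq2 again called Col9a3 only. For Col16a1 the unadjusted interaction p was 0.00136 but the adjusted value was 0.821 or higher as for every chain, so a difference between the sexes was not shown.

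**Figure D4:**
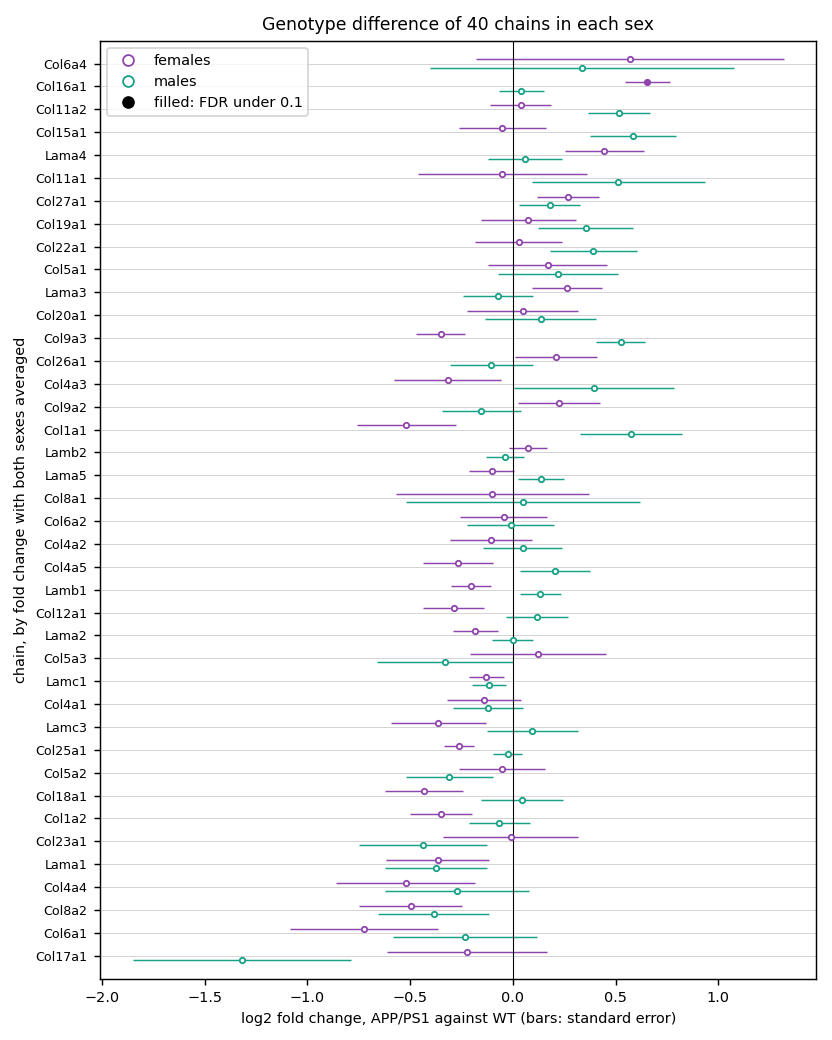
Log2 fold change of APP/PS1 against WT for 40 of the 41 chains in females and males from the edgeR model with 2 RUV factors, bars giving the standard error and filled points an adjusted p under 0.1. The only filled point is Col16a1 in females at 0.65, and all others are open.

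The 3 highest log2 fold changes with both sexes averaged were 0.45 ± 0.52 for Col6a4, 0.35 for Col16a1 and 0.28 ± 0.11 for Col11a2. The 3 lowest were -0.77 ± 0.32 for Col17a1, -0.48 ± 0.25 for Col6a1 and -0.44 ± 0.18 for Col8a2. Apart from Col16a1 none was called (edgeR adjusted p of 0.843, 0.387, 0.441, 0.594 and 0.453). The direction turned without the factors for Col17a1 (0.23 ± 1.4) and Col8a2 (0.38 ± 1.3). Col8a2 was called without WT male 1 (-0.55 ± 0.12, adjusted p = 0.0513, 0.0513 to 0.979 over the alternatives) and Col17a1 without a filter (-1.17 ± 0.32, 0.0904, 0.0904 to 0.985). Over all alternatives Col17a1 ranged from -1.50 (without WT female 1) to 0.23 and Col8a2 from -1.22 (without APP/PS1 male 2) to 0.38. With 1 mouse left out the value for Col6a1 ran from -0.70 (APP/PS1 male 4 left out) to -0.23 (WT female 2 left out). Col6a4 lay between 0.02 (without APP/PS1 female 1) and 0.81 (without WT male 1), and Col11a2 between 0.13 (without APP/PS1 male 4) and 0.32. Col6a1 was at 4.15 to 20.2 CPM in APP/PS1 (median 10.1) and at 13.7, 31, 8.32 and 13.3 in WT, with the Ttr-rich WT female 2 the highest. Of chains named by role, Col1a1, Col1a2, Col4a1, Col4a2, Col4a3, Col4a5, Col5a1, Col5a2, Col5a3, Col6a2 and Col18a1 had log2 fold changes between -0.21 and 0.19. None of these was called. Col4a4 lay lower, at -0.40 ± 0.24, and was not called either (edgeR adjusted p = 0.648). The 10 laminins lay between -0.37 (Lama1) and 0.25 (Lama4), also without a call. The value of Col1a1 averaged opposite directions, -0.52 ± 0.24 in females and 0.58 ± 0.25 in males (edgeR adjusted p = 0.516 and 0.827). Its APP/PS1 females were at 3.25 to 4.05 CPM, below both WT females at 4.92 and 5.62, while the males overlapped. As for Lama4, the share of all genes tested that separated so in females was not counted.

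Females against males, with genotypes averaged, gave 0 called chains of 41 by edgeR's quasi-likelihood test, where 0.0999% of all genes tested were called. At an unadjusted p under 0.05 there were 6 chains (14.6%, against 6.32% of all genes tested), 4 higher in females and 2 lower. Of the 41 log2 differences 28 were above 0 (68.3%, against 49.6% of all genes tested). Choroid plexus markers lay the same way, with 13 of 14 above 0, a median of 0.53, 0 called and 5 at an unadjusted p under 0.05. Ttr defined the split and 10 others passed the filter through the Ttr-rich libraries alone, so this shared direction supports nothing. Hippocampal neuron markers (6 of 8 above 0, median 0.17) and collagen biosynthesis enzymes (19 of 24, median 0.06) also lay mostly above 0. Fibroblast markers were near 0 (5 of 8, median 0.03) and ependymal markers mostly below (1 of 5, median -0.05). Endothelial and mural markers lay the other way, with 0 of 10 above 0 in each list, medians of -0.16 and -0.11, 0 called and 2 at such a p in each. The likelihood ratio test called 1, Col4a3, and DESeq2 called 0. For Col4a3 the log2 difference was 1.04 (edgeR adjusted p = 0.362), and since 2 of 6 female and 1 of 6 male libraries were Ttr-rich, its high values were 4.38 and 5.09 CPM in females and 5.16 in males. Outside the Ttr-rich libraries it was at 0.279 to 0.479 CPM in females and 0.158 to 0.204 in males, 0.479 CPM being the highest of all 9. These levels rest on only 10 to 18 counts a library in females and 6 to 10 in males, below the filter. The share of all genes that separated the sexes in this way was not counted.

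Many collagens were high or low together in single libraries. The median log2 deviation of the 31 collagens from each gene's mean over the 12 libraries was 0.61 in APP/PS1 female 1, 0.68 in WT female 2 and 0.33 in APP/PS1 male 4, whereas it was -0.51 in APP/PS1 female 4 and -0.48 and -0.37 in males 1 and 3 of that genotype. For the 10 laminins it stayed between -0.28 and 0.22, and for all genes tested between -0.03 and 0.02. Among the 9 libraries that were not Ttr-rich, APP/PS1 male 4 was the highest for 16 of the 41 chains and the lowest for 0, against 12.3% and 13.1% of all genes. APP/PS1 female 4 was the lowest for 15 and the highest for 0, against 17.1% and 15.4%. The Ttr-rich APP/PS1 male 2 had a collagen median of -0.03. Col5a1 shows the pattern, at 17.3 CPM in APP/PS1 male 4 and 2.48 in APP/PS1 female 4, with 3.53 to 12.3 in the others. Both libraries were APP/PS1, so the difference lay within the genotype.

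The share of counts on mitochondrial genes, a measure of library composition, was lowest in APP/PS1 male 4 (4.19%) and was 5.89% in APP/PS1 female 4 and 6.01% in APP/PS1 male 1, where the collagens were low. WT male 1 had 5.96% and a collagen median of -0.26. The relation was not complete, as WT female 1 had 4.69% and a collagen median of -0.10. Each library's rank correlation with gene GC content was 0.304 in APP/PS1 male 4 and -0.233 in APP/PS1 female 4. It was -0.117, -0.283 and -0.35 in APP/PS1 males 1 and 3 and WT male 1. In APP/PS1 female 3, WT female 1 and WT male 2 it was 0.256, 0.257 and 0.307, although their collagen medians were below 0. In the Ttr-rich APP/PS1 female 1, where collagens were high, it was -0.284, and in WT female 2, where they were highest, it was 0.257. In APP/PS1 male 2 and APP/PS1 female 2 it was -0.129 and 0.074, with collagen medians of -0.03 and 0.11. The second RUV factor took its highest value in APP/PS1 female 4 (0.538) and its lowest in APP/PS1 male 4 (-0.439), and the first was 0.448 to 0.549 in the Ttr-rich libraries and below 0 in the others. Of the 9008 control genes that set the factors 14 were members, and Col16a1 was not among them. The part of library composition in these differences was not tested.

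**Figure D5:**
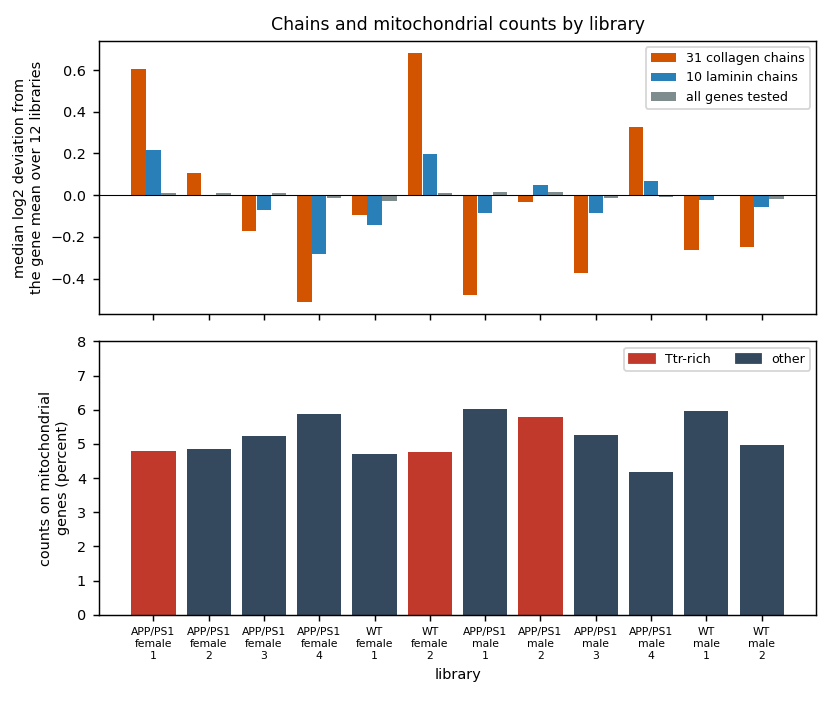
Top, median log2 deviation of collagens, laminins and all genes tested from each gene's mean over the 12 libraries; bottom, percentage of counts on mitochondrial genes, both by library. Collagens run from -0.51 in APP/PS1 female 4 to 0.68 in WT female 2 while the median gene stays within 0.03 of 0.

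The genes that make, anchor, bind or cut these chains were taken from lists written by hand. Of 13 collagen and laminin receptors tested with both sexes averaged, 2 were called higher in APP/PS1 and 0 lower (1.9% of all genes tested were called), with a median log2 fold change of 0.06. Itga6, the integrin alpha chain of laminin receptors, was at 26 to 31.6 CPM in the 8 APP/PS1 libraries (median 29.9) and 22.4, 24.6, 27 and 25.8 in WT, a log2 fold change of 0.26 ± 0.055 (edgeR adjusted p = 0.0362, 0.00464 to 0.27 over the alternatives). Lair1, an inhibitory collagen receptor of leukocytes, was at 9.27 to 17.6 CPM in APP/PS1 (median 13.3) and 6.80, 6.76, 7.48 and 7.01 in WT, a log2 fold change of 0.82 ± 0.16 (adjusted p = 0.0388, 1.38e-05 to 0.27 over the alternatives). Lair1 did not overlap between the genotypes and Itga6 did, by APP/PS1 female 4. Itga6 lost its call without WT female 1 (adjusted p = 0.203), WT female 2 (0.107) or WT male 2 (0.15), and without the Ttr-rich libraries (0.119). Lair1 lost it without WT female 1 (0.198) or 2 (0.185), WT male 1 (0.108) or 2 (0.108), or APP/PS1 male 2 (0.157), and without a filter (0.163). With both the Ttr-rich libraries and the factors left out neither was called (0.27 for each). Over all alternatives the log2 fold change stayed between 0.24 and 0.29 for Itga6 and between 0.70 and 0.91 for Lair1. Their part in the chains' levels was not tested.

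The other lists gave no call with both sexes averaged in edgeR's quasi-likelihood test. Of 24 collagen biosynthesis enzymes tested 0 were called and 2 had an unadjusted p under 0.05, as had 9.58% of all genes tested (median log2 fold change 0.03). Of 14 basement membrane partners 0 were called and 1 had such a p (median -0.02), and of 11 matrix proteases and inhibitors 0 were called and 3 had such a p (median -0.04). The marker lists gave 0 calls of 14 choroid plexus, 8 fibroblast, 10 endothelial, 10 mural, 5 ependymal and 8 neuron markers. Partners of the chains followed Ttr in part. Pcolce, which helps to cut fibrillar procollagens, was at 12.2, 16.1 and 19.1 CPM in the Ttr-rich libraries against 1.38 to 2.86, and Nid2, the nidogen that links laminin to type IV collagen, at 8.08, 9 and 13.5 CPM against 2.06 to 3.34. In all, 6 of the 24 enzymes, 4 of the 14 partners, 2 of the 13 receptors and 3 of the 11 proteases and inhibitors were higher in each Ttr-rich library than in all others, as were 5.53% of all genes tested.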

How the data were processed

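Directional poly(A) libraries of 12 hippocampi were compared. According to the submitters' notes, Trimmomatic was used for trimming, STAR for alignment to GRCm38 and HTSeq for counting. The values the authors deposited are counts per gene. Versions and strand options are not given in the sources used here. Symbols, positions and overlaps came from GENCODE M21. Tested genes had a log2 CPM of 1 or more in 3 or more libraries. Scaling used upper-quartile factors. The model had 2 RUV factors as covariates, from RUVg as re-implemented here, whose controls were all genes except the 5000 ranked highest by a first test over the groups. edgeR 4.0.16 (R 4.3.3) fitted 1 quasi-likelihood model to all libraries, with two-sided contrasts and Benjamini-Hochberg adjusted p-values over all 14008 genes (FDR under 0.1). The procedure was tested on simulated counts. Within groups every pair of libraries differed by more than sampling noise (chi-square per degree of freedom at least 11.6). Libraries with Ttr above 1000 normalized CPM were called Ttr-rich. The spread between mice rests on 2 WT mice a sex, and its part in the precision for each chain was not tested.

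The members and gene lists were chosen with earlier results of these data known. The chains named were those called in any contrast, collagens I, III, IV, V, VI and XVIII, Col25a1 and the laminins, the 5 highest per length, the 3 highest and 3 lowest fold changes with both sexes averaged, the 5 highest Ttr-rich ratios and, from the lists, each gene called. Other chains and list genes named were chosen after their values were seen. Alternatives were TMM scaling, the likelihood ratio test, DESeq2 (1.42.0), no filter, a CPM filter, 0 or 1 RUV factor, a choroid plexus score instead of these factors, the replicate number as a block, an FDR of 0.05, no Ttr-rich libraries with and without the factors, and leaving out each mouse in turn. For the description of Ttr-rich libraries, unscaled totals were also used.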

Additional observations from a re-analysis of the deposited data

Results flagged for a closer look

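In 24 of the 82 groups of 4 APP/PS1 mice (41 chains in each sex) the highest or lowest library stood far from the rest of its group. Of these, 7 belong to the 4 chains that passed the filter through the Ttr-rich libraries alone and had to differ (Col8a1, Col17a1, Col4a3 and Col4a4), which leaves 17 of 74 groups. Chance alone gives about 1 in 20 for independent groups, and chains measured in the same libraries are not independent. The Ttr-rich APP/PS1 female 1 was the distant library for 9 chains, with Col17a1 at 2.89, Col22a1 at 2.38, Col4a3 at 4.38, Col6a4 at 5.07, Col8a1 at 26.4, Col8a2 at 22.1, Col9a3 at 44.3, Lama5 at 13.6 and Lamb1 at 45.3 CPM, each the highest of the 4. The Ttr-rich APP/PS1 male 2 was the distant library for 8, with Col17a1 at 2.45, Col18a1 at 8.50, Col4a3 at 5.16, Col4a4 at 5.93, Col8a1 at 37.4, Col8a2 at 33.7, Col9a3 at 62.7 and Lama5 at 16.6 CPM, again each the highest.

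APP/PS1 male 4 was far above the other APP/PS1 males for 5 chains, Col11a1 at 11.9, Col16a1 at 19.9, Col4a1 at 56.5, Col4a2 at 57.9 and Col5a1 at 17.3 CPM, and its share of mitochondrial counts was the lowest of all libraries. APP/PS1 female 4 was far below the other APP/PS1 females for Col6a1, at 4.15 CPM. APP/PS1 male 1 was far below the other APP/PS1 males for Lama1, at 1.48 CPM. The part of library composition in these values was not tested. Groups of 2 WT mice are too small for this check.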

How the results depend on the processing

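Counts of called chains were 0 to 2 in every alternative, so each count moved by single chains. With both sexes averaged the count of 1 became 0 without RUV factors, with 1 factor, with the choroid plexus score and without the Ttr-rich libraries with or without factors, and 2 (Col6a1 and Col23a1) with the replicate block. Without a filter it stayed 1, but the chain was Col17a1. In females the count of 1 became 2 by the likelihood ratio test and DESeq2 (Col16a1 and Col25a1) and with the replicate block (Col16a1 and Col6a1), and 0 without RUV factors, with 1 factor, with the choroid plexus score and without the Ttr-rich libraries and factors. It stayed 1 without a filter (Col6a3) and without the Ttr-rich libraries, though Col16a1 was then not called. In males and for the interaction the count of 0 became 1 by the likelihood ratio test and DESeq2, and for females against males 1 by the likelihood ratio test and 1 without the Ttr-rich libraries. The cause was not tested. Leaving out each mouse in turn gave 0 to 2 chains with both sexes averaged, 0 to 2 in females, 0 to 0 in males, 0 to 1 for the interaction and 0 to 2 for females against males, where Col11a2 and Col4a2 were called without APP/PS1 male 4. With both sexes averaged Col8a2 was also called without WT male 1. With both sexes averaged Col16a1 was not called without APP/PS1 female 1, 2 or 4, WT female 1 or 2, or APP/PS1 male 4. In females it was not called without APP/PS1 female 1 or 4, WT female 1 or APP/PS1 male 4. Where a WT mouse was left out, the lone WT mouse was assumed to vary like the other groups. The count of chains highest in all Ttr-rich libraries was 11 to 14 under the scaling and filter alternatives and 8 (without APP/PS1 female 1) to 14 without 1 mouse. Of 92 values of the 4 called fold changes (Col16a1 with both sexes averaged and in females, Itga6 and Lair1) under an alternative, 55 kept the call, 37 lost it and 0 reversed. Of the other fold changes of single genes under an alternative 10 gained a call and 125 moved by more than a standard error without a call. The replicate numbers share only a number: of 14 same-numbered pairs 4 had deviations from the group means that correlated above 0.1 (from -0.673 to 0.732), and 3 of the 12 libraries correlated best with their own number. Under the replicate block the receptors Itga6 and Lair1 were not called (adjusted p = 0.102 and 0.124), nor was Col16a1 with both sexes averaged (0.149). There the log2 fold change of Col6a4 was -0.40, turning its direction, and that of Col6a1 was -0.94. The interaction, males and females against males stayed at 0. Chains under about 2 CPM were measured near the filter.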
